A study of Mus musculus with 16 samples.

Results

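Microglia, the resident macrophages of the brain, gather around amyloid plaques and change what they express there. In isolated cells, genes of surveillance are known to give way to genes of phagocytosis, lysosomes and lipid handling, a state often called plaque-associated or disease-associated and known to depend in part on the receptor Trem2. This account covers 34 such genes, chosen by name with earlier results of these data known. They were matched by gene name in a count table of 55385 genes. They comprise 12 surface receptors and integrins, 6 secreted ligands and lectins, 7 genes of lysosomes, tetraspanins and granules, 4 of lipid handling and 5 others. All 34 were found, and 33 passed the filter on low counts, which kept 17132 genes. The exception was Lilrb4a, listed at 0 in 8 of 16 libraries.

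The RNA was polyadenylated RNA of hippocampus from mice aged 9 months, with 16 libraries in 4 groups of 4, each of 2 females and 2 males. 5xFAD-Dp16 mice carried both the amyloid transgenes and the duplication, 5xFAD mice the transgenes alone, Dp16 mice the duplication alone, and wild-type (WT) C57BL/6J mice neither. The 5xFAD transgenes carry mutations of familial Alzheimer disease and are under control of the Thy1 promoter and so expressed mainly in neurons. Dp16 mice have an extra copy, in tandem, of the stretch of chromosome 16 whose genes are mostly found on human chromosome 21. The labels give no strain for the 3 mutant groups, no litter and no batch, and their treatment field reads N/A. None of the 34 genes lies in the duplicated segment (0 of 34), and Itgb5 lies on chromosome 16 outside it. 5xFAD and 5xFAD-Dp16 are called carriers below, Dp16 and WT non-carriers.

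Libraries held 16922937 to 25308693 counts. Levels are CPM, counts relative to the scaled library total, and are given in the order 1, 8, 9 and 11 for 5xFAD-Dp16 libraries, 6, 10, 13 and 15 for 5xFAD, 3, 5, 12 and 14 for Dp16, and 2, 4, 7 and 16 for WT, the numbers being those of the titles. Fold changes are log2 values, each with an approximate standard error (SE). The SE was derived from the test, as the size of the log2 value divided by the square root of its quasi-likelihood F. A gene was called when its edgeR quasi-likelihood p, adjusted over all 17132 genes, was below 0.05. Markers of thalamus stood high in 6 libraries, 5xFAD-Dp16 1, 5xFAD 6, 13 and 15, Dp16 14 and WT 4, with summed levels of 520.3 to 880.5 CPM against 152.6 to 220.9 CPM in the other 10, and the summed hippocampal neuron markers were lowest in 5xFAD 15, at 389 CPM. Because tissue was measured in bulk, fewer cells of a type and less RNA per cell (or more of either) cannot be told apart in any value below.

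The stretches around the transcription start show what lies in front of these genes. RefSeq promoters on GRCm38.p6, each of 250 bases before and 50 after the start, were found for 27 of the 34 genes (30 promoters). They were searched on both strands for 3 short motifs of factors known in macrophages. The letters TGANTCA, bound by AP-1 factors, stood in 7 of the 30, those of Cd68, Cd84, Cst7, Cybb, Gpnmb, Igf1 and Itgax, and in 7.81% of all 32851 promoters in the table. The letters GAGGAAGT, of the kind PU.1 binds, stood in 2 (Cd300lf and Spp1; 3.20% of all), and TCACGTGA, of the kind MiT/TFE factors bind, in 0 (0.974% of all). The 5 promoters below are shown because they carry a match and belong to genes of large rise in carriers. They run 5′ to 3′ in the sense of the gene, and capitals mark the match, none of which overlaps another. A match is a run of letters and says nothing of binding.
Cst7, plus strand, chr2:150570165-150570464: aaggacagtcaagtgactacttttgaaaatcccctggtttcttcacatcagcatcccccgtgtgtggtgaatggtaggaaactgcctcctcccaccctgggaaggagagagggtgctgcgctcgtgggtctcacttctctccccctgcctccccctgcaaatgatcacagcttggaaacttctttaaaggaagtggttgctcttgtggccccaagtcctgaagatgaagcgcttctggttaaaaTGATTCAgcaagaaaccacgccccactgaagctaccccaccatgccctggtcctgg
Itgax, plus strand, chr7:128129300-128129599: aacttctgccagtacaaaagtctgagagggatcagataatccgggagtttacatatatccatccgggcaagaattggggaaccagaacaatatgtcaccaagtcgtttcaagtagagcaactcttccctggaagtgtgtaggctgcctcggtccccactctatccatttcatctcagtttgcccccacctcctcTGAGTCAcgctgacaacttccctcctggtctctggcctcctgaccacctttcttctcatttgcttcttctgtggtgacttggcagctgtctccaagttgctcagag
Gpnmb, plus strand, chr6:49036268-49036567: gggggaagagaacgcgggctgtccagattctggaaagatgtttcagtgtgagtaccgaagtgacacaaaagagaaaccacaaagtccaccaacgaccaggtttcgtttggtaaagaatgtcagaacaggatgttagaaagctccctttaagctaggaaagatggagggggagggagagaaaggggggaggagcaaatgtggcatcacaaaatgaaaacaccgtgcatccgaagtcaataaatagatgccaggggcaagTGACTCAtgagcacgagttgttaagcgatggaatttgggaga
Cd68, minus strand, chr11:69666121-69666420: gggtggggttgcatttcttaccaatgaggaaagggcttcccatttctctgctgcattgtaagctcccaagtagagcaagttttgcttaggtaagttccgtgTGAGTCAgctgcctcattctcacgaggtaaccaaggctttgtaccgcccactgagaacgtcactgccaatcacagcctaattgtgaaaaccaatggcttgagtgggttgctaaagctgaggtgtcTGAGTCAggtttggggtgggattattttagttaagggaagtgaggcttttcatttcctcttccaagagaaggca
Spp1, plus strand, chr5:104434861-104435160: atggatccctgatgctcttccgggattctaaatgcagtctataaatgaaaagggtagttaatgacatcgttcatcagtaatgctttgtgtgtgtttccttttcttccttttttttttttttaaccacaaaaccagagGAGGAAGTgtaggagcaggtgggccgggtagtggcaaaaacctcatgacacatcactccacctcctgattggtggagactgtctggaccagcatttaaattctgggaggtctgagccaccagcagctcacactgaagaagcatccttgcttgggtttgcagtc
The AP-1 type letters begin 6 bases before the start in Cst7 and 56 before it in Itgax, whereas Cd68 has 2 such runs, 149 and 24 bases before its start. In Gpnmb they lie in the 50 bases after the start. In Spp1, shown by the first of its 2 promoters, the PU.1 type letters begin 113 bases before the start.

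Most of these genes were higher in carriers of the transgenes on both backgrounds. In 5xFAD against WT, 29 of 33 tested genes rose and 0 fell, with a median log2 fold change of 2.44, against a median of 0.027 over all genes tested, of which 5.31% rose. In 5xFAD-Dp16 against Dp16, 24 of 33 rose and 0 fell, with a median of 1.88 against -0.0073 over all genes, of which 2.99% rose. In all, 24 rose in both comparisons. The 34 genes were chosen with earlier results of these data known, so these counts describe the list and are no independent test of it. The low-count filter worked by group, so genes with few counts in non-carriers could pass it through carrier libraries alone. Cd300lf, Tgm1, Pdcd1, Hcar2 and Cst7, with 4, 5, 7, 9 and 19 counts in all WT libraries, are such genes. Their direction was in part fixed by the filter, and they are among the genes counted here. Filtered on the Dp16 and WT libraries alone, 28 of the 34 genes passed. Spp1, Lgals3, Cd63, Fabp5 and Hif1a passed the threshold only in 5xFAD against WT, 0 only in 5xFAD-Dp16 against Dp16, and Cd83, Lpl, Ank and Cotl1 in neither. Of the first 5, DESeq2 also called Cd63 and Spp1 on the Dp16 background, limma Spp1, the fit of 8 libraries Cd63, and the fit with no low-count filter Cd63, Spp1 and Lgals3. Of the last 4, DESeq2 and the fit with no low-count filter called Cd83 and Lpl in 5xFAD over WT, and limma Lpl and Cotl1. With no low-count filter Lpl was also called on the Dp16 background. Other calls were lost. In 5xFAD over WT, DESeq2 lost Cd300lf, and the fit of 8 libraries lost Cd63, Fabp5, Plin2 and Cd300lf. On the Dp16 background, limma lost Igf1, the fit with no sex term Cd300lf, and the fit of 8 libraries Dkk2 and Cd300lf. The difference between the backgrounds was tested by the interaction below, which called 0 genes in the main fit and 6 members with no low-count filter. Each of the 33 estimates was positive in both comparisons, with 22 over 2-fold in each and 15 over 4-fold in both. Of all 17132 genes, 9214 were positive in 5xFAD over WT and 8316 in 5xFAD-Dp16 over Dp16. Every 5xFAD library lay above every WT library for 29 of 34 genes, as for 7.62% of genes tested. Likewise every 5xFAD-Dp16 library lay above every Dp16 library for 27 of 34, as for 6.56%. Across the 33 genes, the log2 fold changes on the Dp16 and on the WT background correlated with Pearson's r = 0.948 and Spearman's rho = 0.930. These points are genes of the same libraries and not independent replicates. In 5xFAD over WT all 13 thalamus markers and all 6 oligodendrocyte markers also had positive estimates (medians 0.70 and 0.53), and all 10 hippocampal neuron markers had negative ones (median -0.52). In 5xFAD-Dp16 over Dp16 these medians were -0.13, 0.17 and -0.28. Choroid plexus markers were all 13 negative in 5xFAD over WT (median -0.77) and all 13 positive in 5xFAD-Dp16 over Dp16 (median 1.82). Their part in the members' values was not tested.

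**Figure D1:**
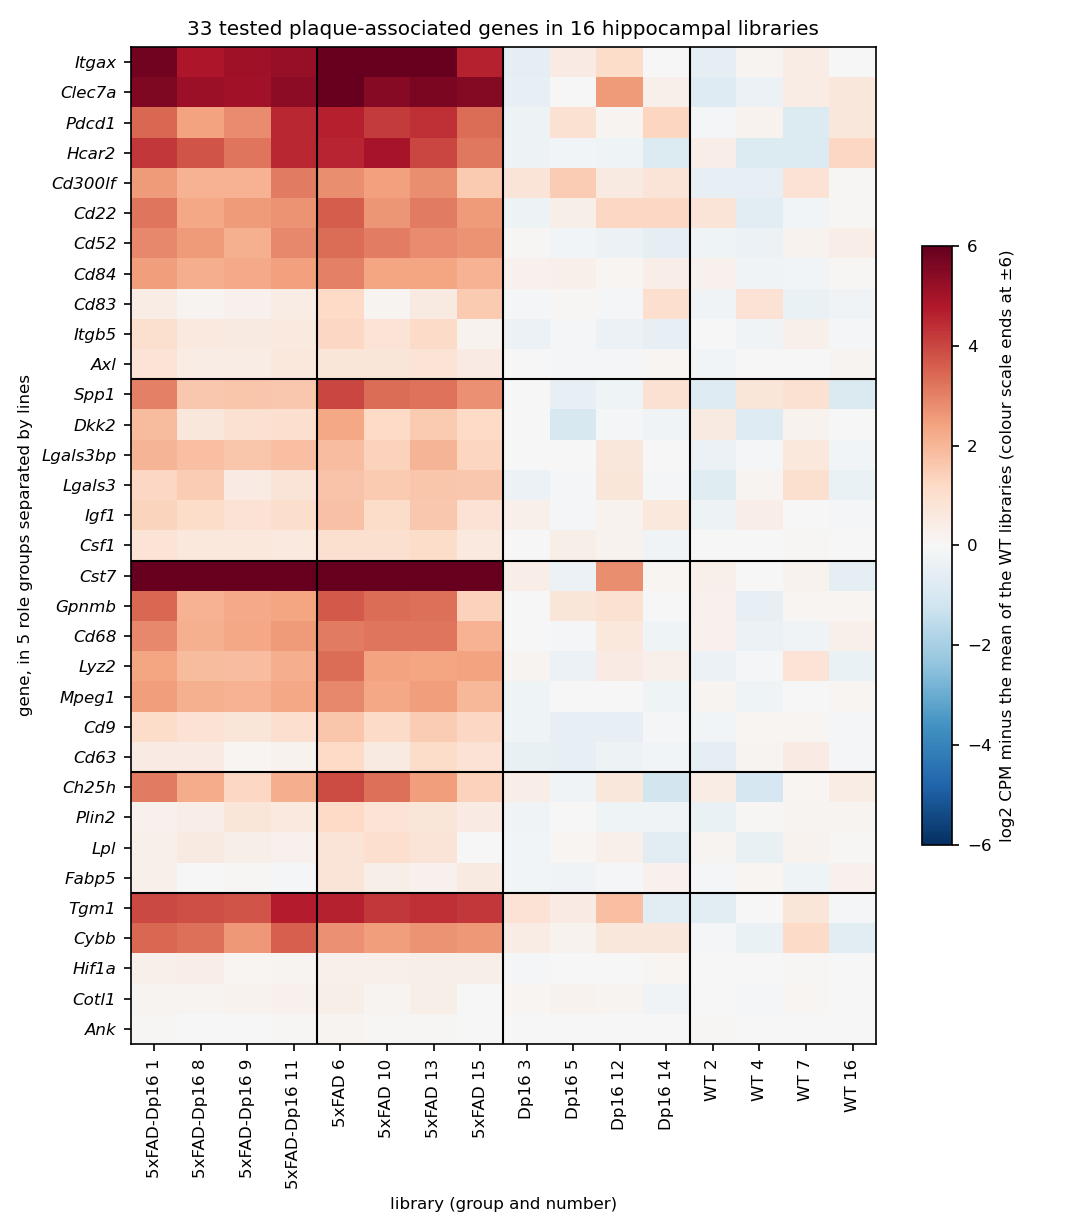
Level of each of the 33 tested genes (rows, in the 5 role groups, ordered by fold change) in each of the 16 libraries (columns, by group), as log2 CPM minus the mean of the WT libraries, red for higher and blue for lower. The 8 carrier columns are red for most rows, with Cst7, Itgax and Clec7a darkest, and among non-carriers Dp16 12 stands out for Cst7 and Clec7a.

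Among the 12 surface receptors and integrins, 10 rose in each transgene comparison, Cd83 did not pass in either, and Lilrb4a could not be tested. Itgax, the integrin alpha X chain known as CD11c (ENSMUSG00000030789.9), had 28.2, 14.8, 17.5 and 19.2 CPM in 5xFAD-Dp16 and 37.3, 38.8, 34.1 and 12.6 in 5xFAD libraries. It had 0.246, 0.641, 1.02 and 0.423 CPM in Dp16 and 0.247, 0.4801, 0.612 and 0.4202 in WT libraries. Carriers and non-carriers did not overlap, and 5xFAD 15 was the lowest carrier. The log2 fold change was 6.05 ± 0.39 in 5xFAD over WT and 5.11 ± 0.37 in 5xFAD-Dp16 over Dp16 (adjusted p = 2.53e-07 and 1.37e-06).

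Clec7a, or dectin-1, a receptor for fungal beta-glucans, had 22.8, 16.9, 15.6 and 19.6 CPM in 5xFAD-Dp16 and 43.7, 21.1, 23.8 and 21.5 in 5xFAD libraries. It had 0.246, 0.374, 2.71 and 0.508 CPM in Dp16 and 0.185, 0.288, 0.565 and 0.672 in WT libraries. The highest carrier was 5xFAD 6 and the highest non-carrier Dp16 12, still well below the lowest carrier. Its rise was 5.88 ± 0.53 in 5xFAD over WT and 4.36 ± 0.48 in 5xFAD-Dp16 over Dp16, or 5.53 without Dp16 12. Pdcd1, the inhibitory receptor PD-1, had 1.66, 0.755, 1.06 and 3.57 CPM in 5xFAD-Dp16 and 3.995, 2.88, 3.201 and 1.55 in 5xFAD libraries. It had 0.0411, 0.214, 0.08902 and 0.296 CPM in Dp16 and 0.0617, 0.09602, 0 and 0.168 in WT libraries, from 14 counts in all Dp16 and 7 in all WT libraries. Counts that low gave a wide ratio, 33.3-fold for 5xFAD over WT, with a 95% interval of 15.96 to 83.6 that, like those below, covers counting error only. For 5xFAD-Dp16 over Dp16 it was 11.2-fold, from 6.49 to 21.

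Cd22, a sialic acid-binding inhibitory receptor, had 4.81, 2.49, 2.94 and 3.34 CPM in 5xFAD-Dp16 and 6.42, 3.200, 4.51 and 2.95 in 5xFAD libraries, against 0.329, 0.588, 1.16 and 1.14 in Dp16 and 0.802, 0.2401, 0.377 and 0.462 in WT libraries. The groups with and without transgenes were apart on both backgrounds, and the rise was 3.17 ± 0.37 in 5xFAD over WT and 2.04 ± 0.34 in 5xFAD-Dp16 over Dp16. Hcar2, a receptor for niacin and the ketone body beta-hydroxybutyrate, rose by 4.75 ± 0.67 and 5.97 ± 0.79 (log2) in these comparisons. With 1 library left out the value over WT ran from 4.24 to 6.38, the highest without WT 16. It rested on 301 counts in 5xFAD against 9 in WT and on 222 in 5xFAD-Dp16 against 3 in Dp16. That is 74.98-fold on the Dp16 background, with a counting interval of 25.3 to 366 (95%). Cd52, a small surface glycoprotein, rose by 3.03 ± 0.23 and 2.96 ± 0.23 (log2). It shares exon sequence with Crybg2 on the opposite strand, which held 188 counts over all libraries against 2044 of Cd52. Cd84, a homophilic receptor of the SLAM family, rose by 2.51 ± 0.18 and 2.09 ± 0.17. Cd300lf, a lipid-sensing receptor, rose by 3.495 ± 0.62 in 5xFAD over WT and 2.01 ± 0.52 in 5xFAD-Dp16 over Dp16 (adjusted p = 0.00213 and 0.0444). Its counts were low, 58 in 5xFAD against 4 in WT and 56 in 5xFAD-Dp16 against 13 in Dp16. Leaving out any 1 of the 8 libraries of the Dp16 background put its adjusted p there between 0.0685 and 0.222.

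The smaller rises among receptors were of genes with sizeable levels in WT. Itgb5, the integrin beta 5 chain, had 141, 108, 104 and 109 CPM in 5xFAD-Dp16 and 169, 129, 159 and 83.3 in 5xFAD libraries, against 56.3, 65.4, 56.3 and 51.9 in Dp16 and 71.1, 62.9, 88.3 and 67.3 in WT libraries. 5xFAD 15 fell below WT 7, so 5xFAD and WT overlapped, while 5xFAD-Dp16 and Dp16 did not. The log2 fold change was 0.88 ± 0.13 in 5xFAD over WT and 1.004 ± 0.13 in 5xFAD-Dp16 over Dp16. Axl, a receptor kinase that binds apoptotic cells through Gas6, had 115, 89, 88.9 and 100.1 CPM in 5xFAD-Dp16 and 106, 108, 117 and 91.9 in 5xFAD libraries. It had 63.9, 59.4, 62 and 70.5 CPM in Dp16 and 57.5, 67.2, 64.3 and 72.6 in WT libraries. All carriers exceeded all non-carriers, and the rise was 0.69 ± 0.10 and 0.62 ± 0.10 (log2; adjusted p = 0.000387 and 0.00148).

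Cd83, a surface protein of activated dendritic cells and lymphocytes, did not separate the groups. It had 22.8, 18.6, 19.6 and 22.3 CPM in 5xFAD-Dp16, 37.3, 18.4, 24.01 and 48.95 in 5xFAD, 15.9, 17.1, 15 and 33.1 in Dp16 and 14.1, 29.7, 12.6 and 14.1 in WT libraries. Its high libraries in each of 5xFAD, Dp16 and WT were libraries with high thalamus markers, and the groups overlapped on both backgrounds. The log2 fold change was 0.899 ± 0.34 in 5xFAD over WT (adjusted p = 0.12) and 0.08 ± 0.34 in 5xFAD-Dp16 over Dp16 (adjusted p = 0.963). Without 5xFAD 10 the first became 1.14 and passed (adjusted p = 0.0223). The part of thalamic tissue in its level was not tested. Lilrb4a, an inhibitory immunoglobulin-like receptor, had 1, 1, 8 and 4 counts in 5xFAD-Dp16 and 3, 2, 4 and 4 in 5xFAD libraries, and 0 in each of the 4 Dp16 and 4 WT libraries. With the non-carrier group set at a floor of 3 counts in all, the ratio was 3.61-fold for 5xFAD over WT and 4.73-fold for 5xFAD-Dp16 over Dp16. These ratios leave out the counting error of the carrier counts and are not lower bounds. Its near-identical neighbour, named Lilr4b in the table, held 15 counts in 5xFAD-Dp16, 35 in 5xFAD, 2 in Dp16 and 4 in WT, and reads could be split between them.

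**Figure D2:**
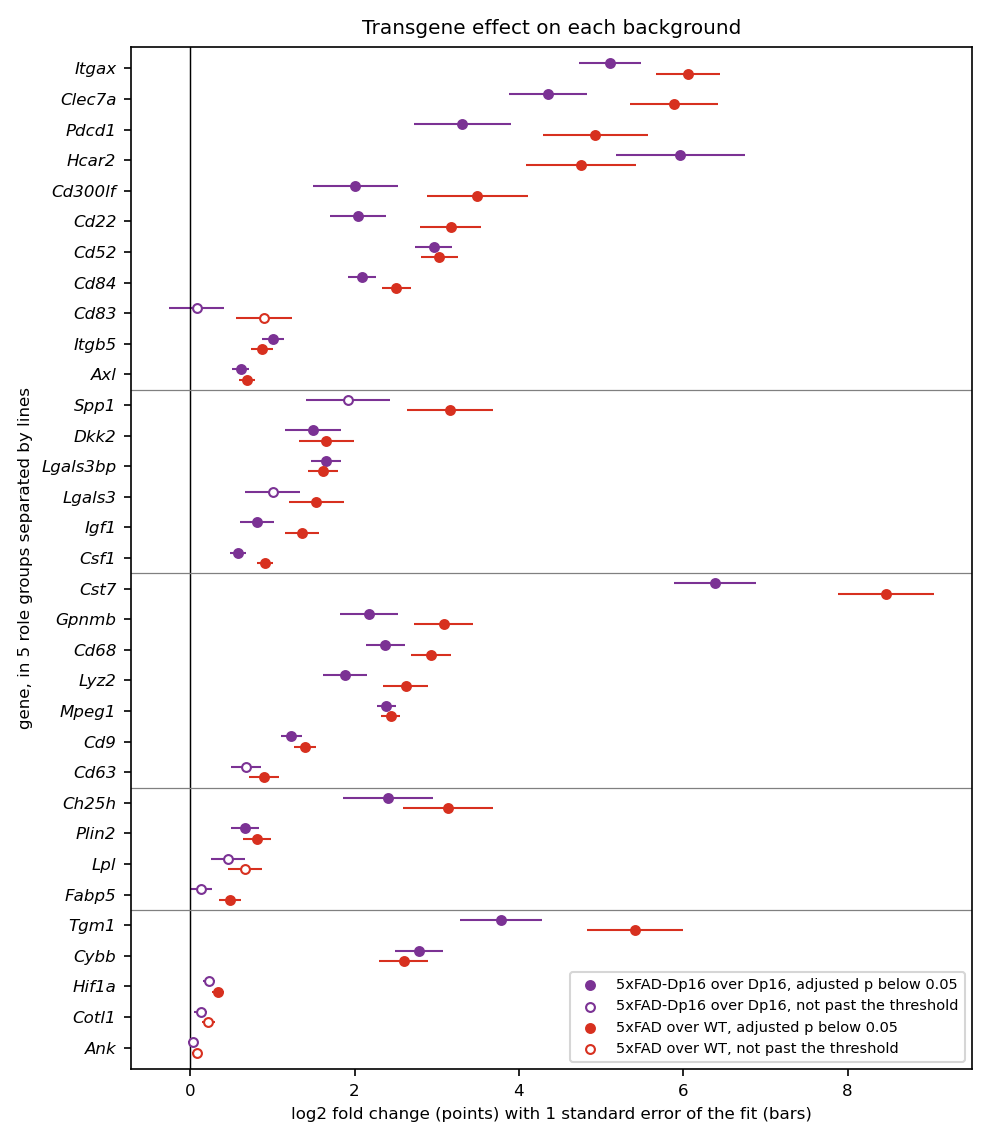
Log2 fold change of each of the 33 tested genes for 5xFAD-Dp16 over Dp16 (purple) and 5xFAD over WT (red), with bars of 1 SE; filled points had an adjusted p below 0.05. All points lie right of 0, from 0.034 for Ank on the Dp16 background to 8.46 for Cst7 on the WT background, and red lies right of purple for 29 of 33 genes.

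All 6 secreted ligands and lectins rose in 5xFAD over WT, and 4 in 5xFAD-Dp16 over Dp16. Spp1, or osteopontin, a secreted phosphoprotein that binds integrins (ENSMUSG00000029304.14), had 63.8, 24.1, 25.2 and 24.3 CPM in 5xFAD-Dp16 and 127, 80.6, 75.5 and 52.6 in 5xFAD libraries. It had 7.64, 5.45, 6.59 and 14.9 CPM in Dp16 and 4.501, 13.1, 15.02 and 4.202 in WT libraries. All carriers were above all non-carriers, but 3 of the 4 5xFAD-Dp16 libraries lay between 24.1 and 25.2 CPM, below every 5xFAD library. Its log2 change was 3.17 ± 0.52 in 5xFAD over WT (adjusted p = 0.00279) and 1.92 ± 0.52 in 5xFAD-Dp16 over Dp16 (adjusted p = 0.0793). Without Dp16 14, a library with high thalamus markers, the value on the Dp16 background was 2.39 and passed (adjusted p = 0.0311).

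Dkk2, a modulator of Wnt signalling, had 3.23, 1.38, 1.59 and 1.74 CPM in 5xFAD-Dp16 and 4.36, 1.99, 2.62 and 1.97 in 5xFAD libraries, against 0.822, 0.374, 0.757 and 0.677 in Dp16 and 1.23, 0.432, 0.942 and 0.8404 in WT libraries. All carriers were above all non-carriers, and it rose by 1.65 ± 0.33 in 5xFAD over WT and 1.498 ± 0.34 in 5xFAD-Dp16 over Dp16. The call on the Dp16 background was lost without Dp16 5, Dp16 12, 5xFAD-Dp16 1 or 5xFAD-Dp16 9, with adjusted p between 0.0509 and 0.0902. Lgals3bp, a glycoprotein that binds galectin-3, had 123, 106, 95.8 and 107 CPM in 5xFAD-Dp16 and 111, 80.3, 125 and 75.1 in 5xFAD libraries. It had 29.99, 29.8, 48.3 and 30.1 CPM in Dp16 and 23.6, 28.2, 47.3 and 26.6 in WT libraries. Its 5xFAD-Dp16 libraries lay within the range of the 5xFAD libraries, and the rise was 1.62 ± 0.18 over WT and 1.66 ± 0.18 over Dp16.

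Galectin-3 itself, the product of Lgals3, which binds beta-galactosides and marks damaged lysosomes, had 3.58, 4.39, 2.12 and 2.61 CPM in 5xFAD-Dp16 and 5.08, 4.58, 4.899 and 4.67 in 5xFAD libraries. It had 1.15, 1.39, 2.49 and 1.397 CPM in Dp16 and 0.863, 1.68, 3.01 and 1.09 in WT libraries. 5xFAD stood clear of WT, while 5xFAD-Dp16 9 was below Dp16 12. Lgals3 differed by 1.53 ± 0.33 (log2) in 5xFAD over WT (adjusted p = 0.0107) and 1.01 ± 0.33 in 5xFAD-Dp16 over Dp16 (adjusted p = 0.172). Igf1, the growth factor, had 17.8, 14.7, 12.6 and 14.2 CPM in 5xFAD-Dp16 and 23.6, 14.99, 21.1 and 12.8 in 5xFAD libraries, against 8.46, 6.52, 7.83 and 10.5 in Dp16 and 5.49, 9.07, 7.06 and 6.303 in WT libraries. All carriers were above all non-carriers, and it rose by 1.36 ± 0.21 over WT and 0.82 ± 0.21 over Dp16 (adjusted p = 0.000599 and 0.0403). On the Dp16 background the call was lost without any library other than Dp16 14, with adjusted p between 0.0534 and 0.182. Csf1, the ligand of the receptor that microglia need to survive, had 54.7, 47.7, 47.8 and 45.7 CPM in 5xFAD-Dp16 and 59.8, 59.6, 65.1 and 46.7 in 5xFAD libraries. It had 30.9, 38.6, 35.96 and 26.4 CPM in Dp16 and 30.4, 30.1, 32.4 and 29.7 in WT libraries. Carriers were above non-carriers throughout, with rises of 0.91 ± 0.097 and 0.58 ± 0.097 (log2).

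All 7 genes of lysosomes, tetraspanins and granules rose in 5xFAD over WT, and 6 in 5xFAD-Dp16 over Dp16. Cst7, cystatin F, an inhibitor of lysosomal cathepsins (ENSMUSG00000068129.5), had the largest fold change of the 33 tested in both comparisons. It had 68.2, 49, 56.3 and 59.6 CPM in 5xFAD-Dp16 and 129.6, 95.95, 82.99 and 34.6 in 5xFAD libraries, against 0.329, 0.1603, 2.09 and 0.254 in Dp16 and 0.308, 0.2401, 0.282 and 0.126 in WT libraries. The lowest carrier, 5xFAD 15, was far above the highest non-carrier, Dp16 12. The log2 fold change was 8.46 ± 0.58 in 5xFAD over WT and 6.39 ± 0.50 in 5xFAD-Dp16 over Dp16 (adjusted p = 9.54e-07 and 5.39e-06). Without Dp16 12 the value over Dp16 was 7.71. Summed counts were 8276 in 5xFAD against 19 in WT, a 363-fold ratio of scaled counts (232 to 603, 95% for counting error). They were 5133 in 5xFAD-Dp16 against 64 in Dp16, an 81.3-fold ratio (63.5 to 105.7), and 47 of those 64 came from Dp16 12. Cst7 passed the low-count filter through carrier libraries alone, so its direction was in part fixed by the filter.

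Gpnmb, a lysosomal glycoprotein of phagocytes, had 91.7, 36.5, 41.2 and 44.2 CPM in 5xFAD-Dp16 and 109.6, 85.9, 84.5 and 22.1 in 5xFAD libraries. It had 8.67, 14.1, 15.98 and 8.51 CPM in Dp16 and 10.2, 5.91, 9.09 and 9.12 in WT libraries. 5xFAD-Dp16 1 lay within the upper 5xFAD libraries, 5xFAD 15 was the lowest carrier, and the rise was 3.08 ± 0.36 and 2.18 ± 0.35. Cd68, a lysosomal membrane glycoprotein used as a marker of phagocytes, had 78.7, 46.9, 53.5 and 62.4 CPM in 5xFAD-Dp16 and 92.2, 98.4, 97.3 and 45.1 in 5xFAD libraries. It had 10.8, 10.1, 16.6 and 8.804 CPM in Dp16 and 12.6, 8.31, 9.13 and 12.9 in WT libraries. 5xFAD 15 was again the lowest carrier, and the rise was 2.93 ± 0.24 over WT and 2.38 ± 0.24 over Dp16.

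Mpeg1, the pore-forming perforin-2 of macrophages, had the smallest p of the 33 in both comparisons, with rises of 2.44 ± 0.11 and 2.39 ± 0.11 (adjusted p = 7.01e-09 and 9.49e-09). It averaged 152 ± 19.8 CPM in 5xFAD-Dp16, 174 ± 43.2 in 5xFAD, 28.98 ± 3.06 in Dp16 and 31.7 ± 3.91 in WT libraries (SD, n = 4 each). Lyz2, the macrophage lysozyme, rose by 2.62 ± 0.27 and 1.88 ± 0.26. Its near-identical copy Lyz1 held 7, 7, 4 and 3 counts in the 5xFAD-Dp16, 5xFAD, Dp16 and WT groups, against 4323, 7399, 1173 and 1004 for Lyz2, so few reads were assigned to the copy.

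The tetraspanins rose by less from higher levels. Cd9, which sits at the cell surface, had 133, 114, 102 and 125 CPM in 5xFAD-Dp16 and 200.1, 138, 179 and 146 in 5xFAD libraries, against 52.5, 44.4, 44.8 and 58.7 in Dp16 and 54.6, 68.3, 68.03 and 58.8 in WT libraries. Carriers were all above non-carriers, and every 5xFAD-Dp16 library was below every 5xFAD library. Its rise was 1.400 ± 0.13 over WT and 1.23 ± 0.13 over Dp16. Cd63, of late endosomes and exosomes, had 85.2, 86.4, 65.2 and 69.5 CPM in 5xFAD-Dp16 and 139, 87.97, 132 and 110.5 in 5xFAD libraries. It had 44.9, 42.6, 48.6 and 54.9 CPM in Dp16 and 42.2, 66.9, 84.7 and 56.2 in WT libraries. Transgene groups were above their controls on both backgrounds, narrowly so on WT, where WT 7 came close to 5xFAD 10. For Cd63 the log2 change was 0.900 ± 0.19 in 5xFAD over WT (adjusted p = 0.00941) and 0.68 ± 0.19 in 5xFAD-Dp16 over Dp16 (adjusted p = 0.0759).

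**Figure D3:**
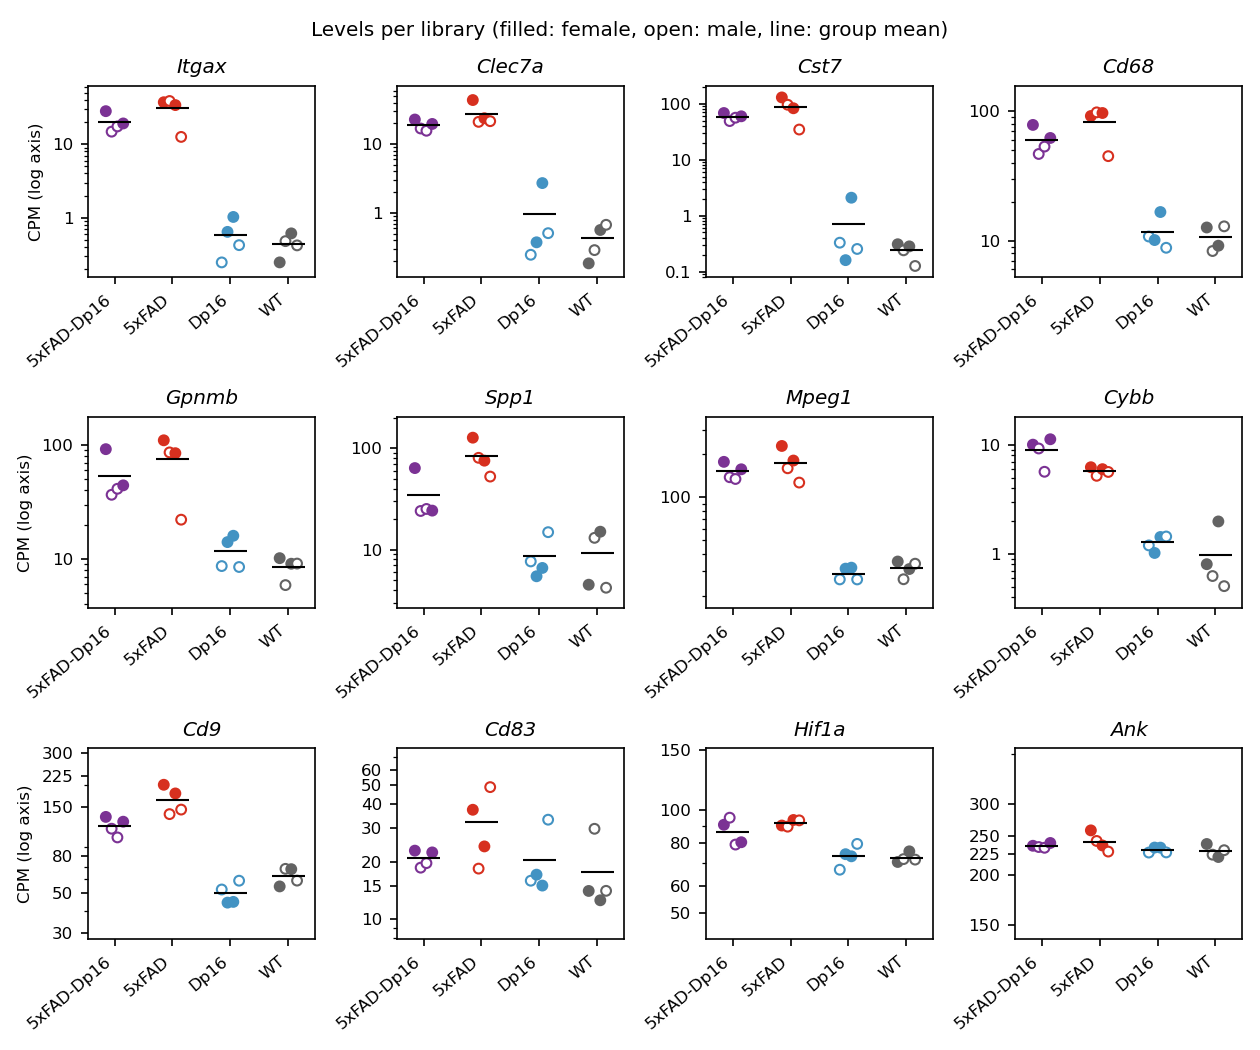
CPM on log axes of 12 genes in each library of the 4 groups, with females filled, males open and a line at the group mean. Itgax, Clec7a, Cst7, Cd68, Gpnmb and Mpeg1 separate carriers from non-carriers, Cybb is higher in 3 of 4 5xFAD-Dp16 libraries than in any 5xFAD library, Cd83 shows single high libraries, and Ank is level.

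Of the 4 genes of lipid handling, 3 rose in 5xFAD over WT and 2 in 5xFAD-Dp16 over Dp16. Ch25h, which makes 25-hydroxycholesterol, had 3.93, 2.13, 1.01 and 2.06 CPM in 5xFAD-Dp16 and 6.94, 4.496, 2.62 and 1.12 in 5xFAD libraries, against 0.534, 0.321, 0.668 and 0.127 in Dp16 and 0.555, 0.144, 0.424 and 0.546 in WT libraries. Carriers were above non-carriers and spread widely among themselves, with rises of 3.13 ± 0.55 and 2.41 ± 0.55. On the Dp16 background the call was lost without Dp16 5, 12 or 14 or 5xFAD-Dp16 1 or 8, with adjusted p between 0.056 and 0.0956. Ch25h shares exon sequence with an RNA on the opposite strand that held 335 counts against 644 of Ch25h over all libraries, and the strand setting of the counting was not given in the sources used here.

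Plin2, a coat protein of lipid droplets, had 7.12, 8.03, 10.04 and 8.93 CPM in 5xFAD-Dp16 and 13.7, 10.7, 9.85 and 8.47 in 5xFAD libraries, against 5.14, 6.15, 4.99 and 5.16 in Dp16 and 4.56, 6.39, 6.68 and 6.64 in WT libraries. All carriers were above all non-carriers, and the rise was 0.81 ± 0.17 and 0.67 ± 0.17 (adjusted p = 0.0085 and 0.0426). The call on the Dp16 background was lost without any library other than 5xFAD-Dp16 1, with adjusted p between 0.0572 and 0.162. Lpl, lipoprotein lipase, had 39.4, 46.6, 41.2 and 38.5 CPM in 5xFAD-Dp16 and 55.6, 65.3, 54.5 and 31.1 in 5xFAD libraries. It had 28.6, 34.9, 39.4 and 20.2 CPM in Dp16 and 36.5, 23.2, 36.9 and 33.95 in WT libraries. Groups overlapped on both backgrounds, with 5xFAD 15 inside the WT range, and the estimates were 0.67 ± 0.21 (adjusted p = 0.069) and 0.46 ± 0.21 (adjusted p = 0.43). Without 5xFAD 15 the value on the WT background was 0.83 and passed (adjusted p = 0.0161). Fabp5, a fatty acid-binding protein, had 68.01, 55.2, 59.1 and 54.02 CPM in 5xFAD-Dp16 and 94.6, 71, 67.8 and 81.2 in 5xFAD libraries. It had 49.5, 48.8, 52.03 and 66.5 CPM in Dp16 and 51.6, 61.3, 46.3 and 66.8 in WT libraries. It rose in 5xFAD over WT by 0.48 ± 0.13 (adjusted p = 0.0373), without overlap, and had 0.13 ± 0.13 in 5xFAD-Dp16 over Dp16 (adjusted p = 0.806). That call did not hold when 5xFAD 6, 5xFAD 15, WT 2, WT 4 or WT 7 was left out, with adjusted p between 0.0613 and 0.145.

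Of the last 5 genes, 3 rose in 5xFAD over WT, Tgm1 and Cybb by much and Hif1a by little, and 2 in 5xFAD-Dp16 over Dp16. Tgm1, a transglutaminase that crosslinks proteins, had 2.05, 1.95, 1.83 and 3.57 CPM in 5xFAD-Dp16 and 3.27, 2.55, 2.81 and 2.53 in 5xFAD libraries, against 0.164, 0.107, 0.401 and 0 in Dp16 and 0, 0.04801, 0.141 and 0.04202 in WT libraries. It rose by 5.42 ± 0.58 over WT and 3.78 ± 0.50 over Dp16, from 5 counts in all WT libraries and 15 in all Dp16 libraries. Cybb, the membrane subunit of the phagocyte NADPH oxidase, had 10.01, 9.23, 5.65 and 11.2 CPM in 5xFAD-Dp16 and 6.21, 5.18, 5.97 and 5.62 in 5xFAD libraries. It had 1.19, 1.02, 1.42 and 1.44 CPM in Dp16 and 0.802, 0.624, 1.98 and 0.504 in WT libraries. Carriers were above non-carriers, and the rise was 2.597 ± 0.30 over WT and 2.79 ± 0.29 over Dp16.

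Hif1a, a transcription factor of the response to low oxygen, had 90.7, 95.2, 79.4 and 80.7 CPM in 5xFAD-Dp16 and 90.3, 89.6, 93.7 and 93.5 in 5xFAD libraries. It had 67.01, 74.4, 73.3 and 79.8 CPM in Dp16 and 70.6, 71.97, 75.8 and 71.7 in WT libraries. 5xFAD did not overlap WT (log2 0.34 ± 0.074, adjusted p = 0.011), while 5xFAD-Dp16 9 fell just below Dp16 14 (log2 0.23 ± 0.074, adjusted p = 0.144). Cotl1, an actin-binding protein, had 109.7, 111, 114 and 119.9 CPM in 5xFAD-Dp16 and 127, 109, 127 and 98.9 in 5xFAD libraries. It had 107, 114, 109 and 86.2 CPM in Dp16 and 100.4, 90.5, 106 and 98.1 in WT libraries. All 4 groups overlapped their neighbours, with estimates of 0.22 ± 0.079 and 0.13 ± 0.079 (adjusted p = 0.104 and 0.605). Ank, a membrane protein that exports pyrophosphate, had 236, 235, 234 and 240.1 CPM in 5xFAD-Dp16 and 258, 243, 237 and 229 in 5xFAD libraries. It had 227, 234, 234 and 228 CPM in Dp16 and 239, 224.6, 222 and 230.4 in WT libraries. Its estimates were 0.078 ± 0.061 and 0.034 ± 0.061 (log2), and the 4 groups shared 1 range.

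Compared per length (RPKM, the authors' deposited reads per kilobase and library depth), the order of the 34 genes differed between carriers and WT. In 5xFAD the highest were Cd9 at 142 ± 27.2 RPKM, Cst7 at 90.2 ± 41.4 and Cd63 at 85.1 ± 18.5 (SD, n = 4), neighbours whose spreads overlap. In WT, Ank at 64.9 ± 1.83 RPKM, Cotl1 at 61.4 ± 2.91 and Fabp5 at 56.95 ± 10.4 led, again within overlapping spreads, and Cst7 was at 0.2403 ± 0.0782. In 5xFAD-Dp16 Cst7 was at 58.4 ± 8.62 RPKM and in Dp16 at 0.695 ± 0.901. The 34 genes summed to 1498 to 1893 CPM in 5xFAD-Dp16 and 1576 to 2450 in 5xFAD libraries, against 863 to 936 in Dp16 and 883 to 995 in WT libraries.

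The size of the response on the 2 backgrounds was compared by the interaction, the transgene effect on the Dp16 background minus that on WT. edgeR called 0 of 33 genes (all genes tested: 0, or 0%), with 3 at an unadjusted p below 0.05 (all genes: 6.5%), and DESeq2 and limma also called 0. With no low-count filter, edgeR called 6 of 34 lower (all genes: 0.901%), namely Cd83, Spp1, Gpnmb, Cst7, Lyz2 and Clec7a. In the main fit the estimate was negative for 29 of 33, as for 8683 of all 17132 genes, with a median of -0.36, against -0.0049 over all genes. The 4 positive ones were Itgb5, Hcar2, Lgals3bp and Cybb. All estimates come from the same libraries, so their signs are not independent. By edgeR's quasi-likelihood test, the 3 of the 33 with the smallest p were Csf1 (log2 -0.33 ± 0.14), Cd22 (log2 -1.13 ± 0.49) and Cst7 (log2 -2.08 ± 0.95), each with an adjusted p of 0.719 by edgeR. For Cst7 and Cd22, Dp16 12 was the highest non-carrier. Without it, Cst7 was at -0.75 and Cd22 at -1.03, and 0 of 33 had an unadjusted p below 0.05. Over the fits that left out 1 library, Cst7 ran from -2.43 to -0.75 and Cd22 from -1.36, without WT 2, to -0.70, without Dp16 14. Markers of other tissue moved in the same contrast: 11 of 13 thalamus estimates (median -0.68) and all 6 oligodendrocyte estimates (median -0.35) were negative, and all 13 choroid plexus estimates were positive (median 2.64). None of these was called, and their part was not tested. In a fit without the 6 libraries of high thalamus markers, chosen after seeing the data, the Gpnmb estimate was negative. That fit held 1 5xFAD library, 5xFAD 10, so the spread within 5xFAD was not measured.

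5xFAD-Dp16 against 5xFAD compared the carriers directly. edgeR called 0 of 33 (all genes: 0.304%), with 8 at an unadjusted p below 0.05 (all genes: 19.1%), of which 7 were lower and 1, Cybb, was higher. That count ran from 4 to 16 when 1 library was left out, 16 without 5xFAD 15 and 4 without 5xFAD 6 or 5xFAD-Dp16 11. The estimate was negative for 30 of 33, as for 9321 of all 17132 genes, with a median of -0.34, against -0.030 over all genes. These estimates share the same libraries, so their signs are not independent. Every 5xFAD-Dp16 library was below every 5xFAD library for 3 of 34, Cd9, Cd63 and Lgals3, as for 3.89% of genes tested. Cd9 averaged 118 ± 13.3 CPM in 5xFAD-Dp16 and 166 ± 29.2 in 5xFAD (SD, n = 4 each), a log2 difference of -0.48 ± 0.13 (adjusted p = 0.107). For Cd63 these were 76.6 ± 10.8 and 117 ± 22.97 CPM, with -0.61 ± 0.19 (adjusted p = 0.136), and for Fabp5 59.1 ± 6.33 and 78.6 ± 12.1 CPM, with -0.41 ± 0.13 (adjusted p = 0.14). DESeq2 called Cd9 and Cd63 lower, 2 of 33 where it called 4.20% of all genes. Without 5xFAD 10, edgeR called all 3 lower, 3 of 33 where it called 11.7% of all genes. With no low-count filter it called 11 of 34 lower (all genes: 5.15%). They were Cd83, Cd68, Cd63, Fabp5, Spp1, Gpnmb, Cd9, Itgax, Cst7, Lyz2 and Clec7a. limma called 0. Without the libraries of high thalamus markers, a choice made after seeing the data, only 5xFAD 10 was left of 5xFAD, and the Gpnmb estimate was negative. The spread within 5xFAD was not measured in that fit. Cybb averaged 9.03 ± 2.396 CPM in 5xFAD-Dp16 and 5.75 ± 0.447 in 5xFAD, with 0.63 ± 0.26 (adjusted p = 0.207). Thalamus markers were high in 1 of 4 5xFAD-Dp16 and 3 of 4 5xFAD libraries. All 13 thalamus markers and all 6 oligodendrocyte markers had negative estimates in this contrast (medians -0.66 and -0.30), and 12 of 15 homeostatic microglia genes did (median -0.28). Their part in these differences was not tested.

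Dp16 against WT asked whether the duplication alone moved these genes. edgeR called 0 of 33 (all genes: 0.228%), 2 had an unadjusted p below 0.05 (all genes: 5.7%), and DESeq2 and limma called 0. The median was 0.072. By the same edgeR fit, the 3 of the 33 with the smallest p were Itgb5 (log2 -0.33 ± 0.13), Cd9 (log2 -0.31 ± 0.13) and Cd22 (log2 0.82 ± 0.39), with edgeR adjusted p of 0.784, 0.794 and 0.872. With no low-count filter edgeR called 3, Cst7 and Clec7a higher and Cd63 lower (all genes: 1.12%). Dp16 12 held 47 of the 64 Dp16 counts of Cst7 and 61 of the 86 of Clec7a. Choroid plexus markers, all 13 negative in this contrast (median -3.41, 8 at an unadjusted p below 0.05), summed to 54.6 to 997 CPM in Dp16 and 475 to 8449 CPM in WT libraries, and their part was not tested. Itgb5 and Cd9 averaged 57.5 ± 5.68 and 50.1 ± 6.86 CPM in Dp16, against 72.4 ± 11.1 and 62.4 ± 6.86 CPM in WT.

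**Figure D4:**
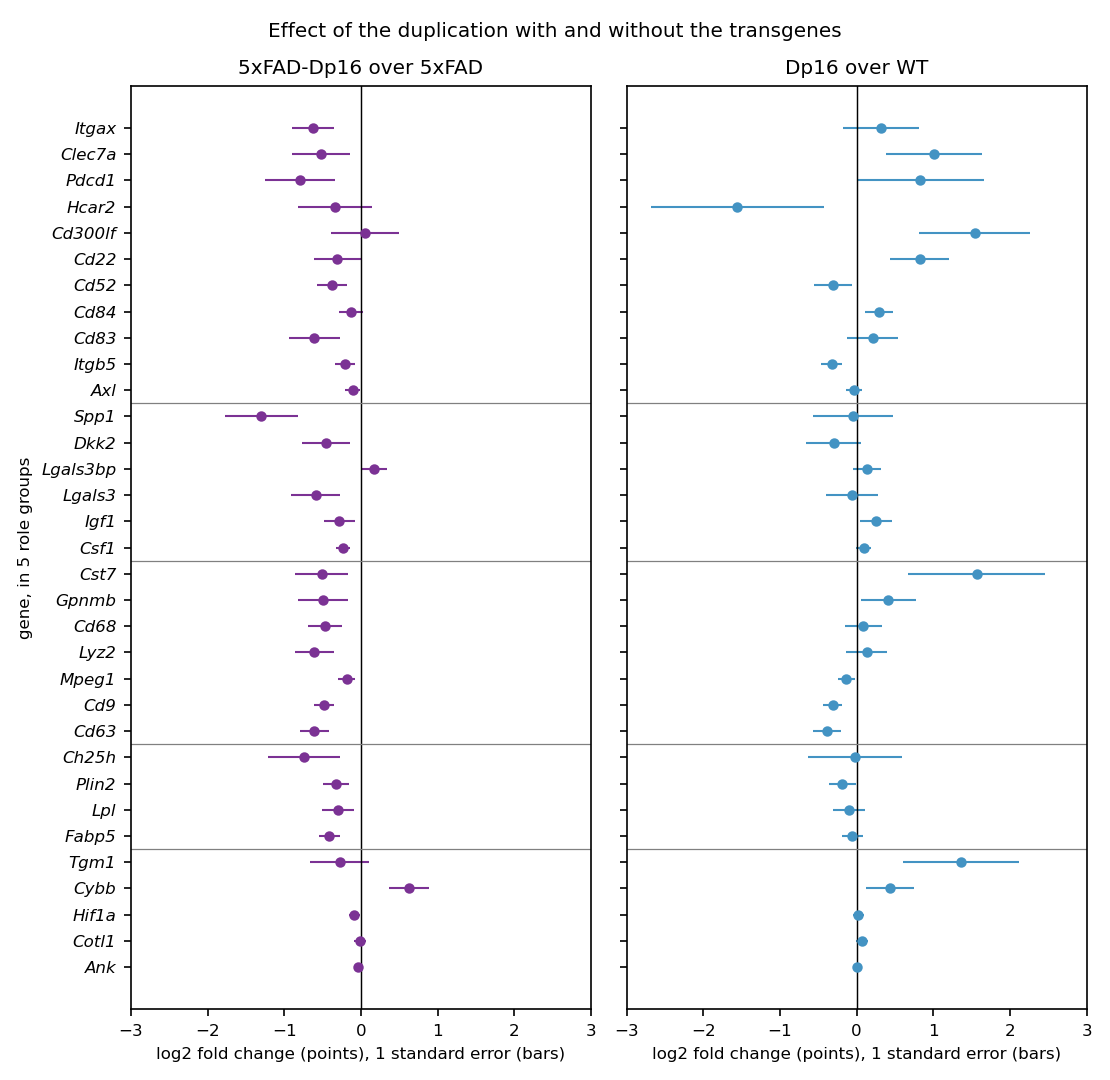
Log2 fold change with bars of 1 SE for the 33 tested genes in 5xFAD-Dp16 over 5xFAD (left) and Dp16 over WT (right). On the left 30 of 33 points lie below 0 and none passed the threshold; on the right the median is 0.072, and genes of low counts, such as Hcar2 and Cst7, have the widest bars.

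Libraries also differed within groups. The mean log2 level of the 33 tested genes, set to 0 at the WT mean, was 2.28, 1.87, 1.78 and 2.101 in 5xFAD-Dp16 and 2.72, 2.33, 2.40 and 1.89 in 5xFAD libraries. It was -0.017, 0.044, 0.41 and 0.067 in Dp16 and -0.10, -0.12, 0.20 and 0.030 in WT libraries. Genes above the highest WT library numbered 31, 30, 28 and 29 of 33 in 5xFAD-Dp16, 33, 32, 31 and 29 in 5xFAD, and 3, 7, 12 and 6 in Dp16 libraries. Over all genes tested, the share above the highest WT library lay between 18.7 and 25.9% for 5xFAD-Dp16, between 25.7 and 36.8% for 5xFAD and between 20.5 and 23.3% for Dp16 libraries. Within 5xFAD, library 6 was highest for 23 of 33 genes and library 15 lowest for 24. Within 5xFAD-Dp16, library 1 was highest for 20 and library 9 lowest for 18. Library 5xFAD 15 also had the highest oligodendrocyte score of the 16 (1.05), the lowest hippocampal neuron score (-1.32) and the lowest Thy1 of the carriers (1355 CPM, against 1872 to 2821 in the other 7). Thy1 reads can include transgene sequence. The part of tissue content in the level of these genes was not tested. Leaving out any 1 library of 5xFAD or WT called 28 to 30 of these genes in 5xFAD over WT. The same fits called 3.22 (without WT 2) to 20% (without 5xFAD 10) of all genes, in either direction.

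A fit without the 6 libraries of high thalamus markers, chosen after seeing the data, kept 3 libraries each of 5xFAD-Dp16, Dp16 and WT and 1 of 5xFAD. 5xFAD against WT then called 19 (all genes: 1.67%), of which 18 were among the 29, with a median log2 fold change of 2.35. 5xFAD-Dp16 against Dp16 called 18 (all genes: 3.15%), all among the 24, with a median of 1.78, and Dkk2, Plin2, Lgals3bp, Cd300lf, Lyz2 and Clec7a no longer passed. These fits rest on fewer libraries, and the lone 5xFAD library was assumed to vary like the other groups. Among these libraries 5xFAD 10 was above WT 2, 7 and 16 for 34 of 34 genes, as for 29.8% of genes tested, and 5xFAD-Dp16 8, 9 and 11 were above Dp16 3, 5 and 12 for 30 of 34, as for 12.4%, the exceptions being Lgals3, Lpl, Ank and Cotl1.

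Among the non-carriers, Dp16 12, a female, was above all 7 others for 10 of 33 genes, Itgax, Clec7a, Cd22, Lgals3bp, Cst7, Cd68, Gpnmb, Lpl, Ch25h and Tgm1, as for 11.1% of all genes tested. WT 7 was highest for 7 (14.9% of all genes), Dp16 14 for 5 (17.4%), WT 16 for 4 (10.9%), Dp16 5 and WT 2 for 3 each (12.7% and 12.6%), WT 4 for 1 (10.5%) and Dp16 3 for 0 (9.84%). Cst7 was at 2.09 CPM there (47 counts), against 0.160 to 0.329 in the other 3 Dp16 and 0.126 to 0.308 in WT libraries. Clec7a was at 2.71 CPM (61 counts), against 0.246 to 0.508 and 0.185 to 0.672. The 10 genes were picked as highest in Dp16 12, so an excess in it was fixed in advance and only its size is described. Set against the mean difference between 5xFAD-Dp16 and the other Dp16 libraries, the excess of Dp16 12 ran from 3.01% for Itgax to 85.4% for Lpl, which was not called on that background. It was 3.18% for Cst7, 12.7% for Clec7a, 12.95% for Gpnmb, 13.4% for Cd68, 13.7% for Tgm1, 17.4% for Cd22 and Ch25h and 23.5% for Lgals3bp. Genes outside the 10 went both ways, such as Lgals3 at 63.3% and Fabp5 at -69.9%. Thy1 was at 906 CPM in it, within the 841 to 934 of the other Dp16 libraries and below the 2415 to 2679 of 5xFAD-Dp16. Its homeostatic microglia score was -0.13 and its thalamus score -0.96.

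**Figure D5:**
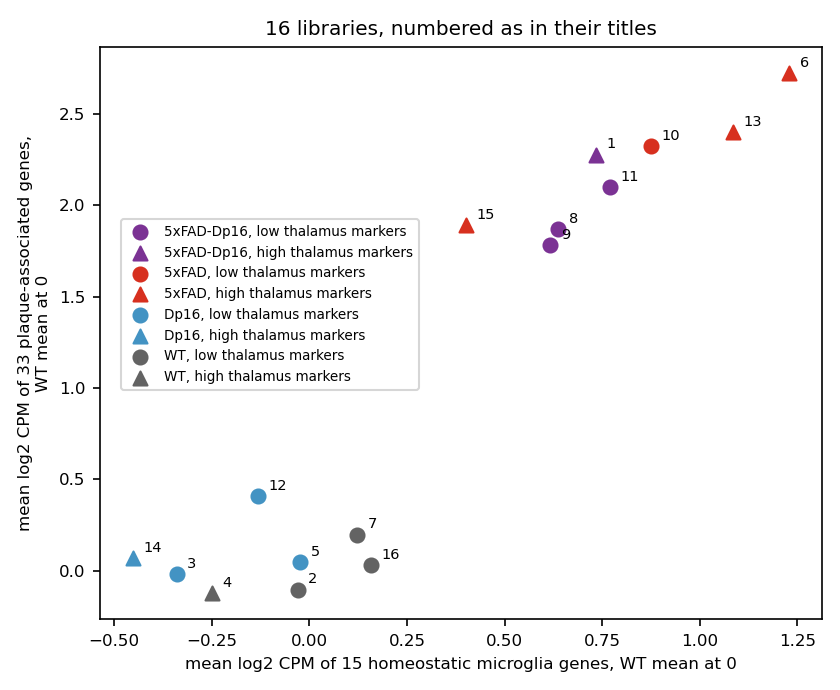
Mean log2 CPM of the 33 tested plaque-associated genes (vertical) against that of 15 homeostatic microglia genes (horizontal), both 0 at the WT mean, for the 16 libraries; triangles mark high thalamus markers. Carriers lie at 1.78 to 2.72 and 0.40 to 1.23, non-carriers at -0.12 to 0.41 and -0.45 to 0.16, and Dp16 12 is the highest non-carrier.

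The difference of the transgene effect between females and males, over both backgrounds, was called for 0 of 33 genes by edgeR (all genes: 0%), with 5 at an unadjusted p below 0.05 (all genes: 3.73%), all larger in females, and 0 by DESeq2 and limma. With no low-count filter, edgeR called 3 larger in females, Cd83, Spp1 and Cd9 (all genes: 0.879%). In the edgeR fit, the 3 of the 33 with the smallest p were Cd9 (log2 0.52 ± 0.13), Igf1 (log2 0.81 ± 0.22) and Axl (log2 0.39 ± 0.11), each with an adjusted p of 0.936 by edgeR. Cd9 lay between 124.8 and 200.1 CPM in carrier females and 44.4 and 68.0 CPM in non-carrier females. In males it lay between 102.1 and 145.7 CPM in carriers and 52.5 and 68.3 CPM in non-carriers. Igf1 lay between 14.2 and 23.6 CPM in carrier females and 5.49 and 7.83 CPM in non-carrier females, and between 12.6 and 14.99 CPM in carrier males and 6.30 and 10.5 CPM in non-carrier males. Thalamus markers moved with this contrast too: all 13 estimates were positive (median 2.61), 11 at an unadjusted p below 0.05. Their part in it was not tested.

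Other gene lists, also chosen with earlier results of these data known, set these values in context. Of 30 further genes described in plaque-associated microglia, 24 rose in 5xFAD over WT and 23 in 5xFAD-Dp16 over Dp16, 0 fell, and the medians were 1.47 and 1.20. Trem2, the receptor of this state, rose by 3.26 ± 0.17 and 2.60 ± 0.16 (log2), and Tyrobp, its adaptor, by 2.83 ± 0.18 and 2.16 ± 0.18. Apoe, an apolipoprotein also made by astrocytes, rose by 0.84 ± 0.12 and 0.59 ± 0.12, and Ctse, cathepsin E, by 5.66 ± 0.61 and 4.14 ± 0.53. Homeostatic microglia genes, used here as the check that microglial RNA was present, were detected in all libraries, at 505 to 622 CPM summed in 5xFAD-Dp16 and 437 to 822 in 5xFAD, against 254 to 327 in Dp16 and 275 to 343 in WT. Of the 15, 12 rose over WT and 13 over Dp16, 0 fell, and the medians were 0.98 and 1.03. Cx3cr1, the fractalkine receptor, rose by 1.19 ± 0.14 and 1.03 ± 0.14, and Gpr34, a lysophosphatidylserine receptor, by 1.51 ± 0.18 and 1.31 ± 0.18. The share of the members' rise that goes with more microglial RNA was not tested.

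Markers of border macrophages and monocytes summed to 27.96 to 46.6 CPM in 5xFAD-Dp16 and 25.8 to 51.7 in 5xFAD, against 28.01 to 36.9 in Dp16 and 25.9 to 44.2 in WT. Of 10 tested, 0 passed over WT and 1, Folr2, rose over Dp16, and Ccr2, Ly6c2 and Plac8 were too low to test. Neutrophil markers summed to between 0 and 3.27 CPM in every library, with Ly6g at 0 throughout. Lymphocyte markers summed to 1.64 to 3.497 CPM in 5xFAD-Dp16 and 1.37 to 2.58 in 5xFAD, against 0.616 to 0.855 in Dp16 and 0.126 to 0.720 in WT. The only one tested, the T cell gene Cd3e, rose by 3.66 ± 0.80 and 2.43 ± 0.62 (adjusted p = 0.011 and 0.0428 by edgeR). The part of these cells in Pdcd1, Cd22, Cd52 or any other member was not tested. Of 7 astrocyte genes, 3 (Aqp4, Aldoc and Mlc1) rose over WT and 0 passed over Dp16, where 2 had an unadjusted edgeR p below 0.05 (all genes: 11.2%). Of 10 hippocampal neuron genes, 1 (Wfs1) fell over WT. Genes of thalamus (13), choroid plexus (13), oligodendrocytes (6) and endothelial cells (6) had 0 called in either comparison by edgeR. Over WT, 6 had an unadjusted edgeR p below 0.05 (all genes: 24.9%), 4 of oligodendrocytes and 2 of endothelial cells.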

How the data were processed

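Hippocampal polyadenylated RNA of 16 mice was sequenced from strand-specific libraries, per the labels' protocols, and the design text gives 4 mice a group. Tools listed in the submitters' processing notes are HISAT2 2.1.0, HTSeq 0.6.1, SAMtools 1.5, FastQC 0.11.5 and bcl2fastq, with the build GRCm38. The deposited tables are named for a GENCODE annotation of that build, and the strand setting of the counting was not given in the sources used here. The authors deposited raw read counts per gene and RPKM values in separate tables, and the RPKM values served for levels per length and an alternative test.

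Counts were tested with edgeR 4.0.16 (R 4.3.3), using TMM scaling, a filter of about 10 counts in a group's libraries, a quasi-likelihood fit with terms for the 4 groups and sex, and adjustment by the Benjamini-Hochberg method over 17132 genes. A second model added the sex by transgene term. CPM used the TMM-scaled library sizes (factors 0.9445 to 1.13), and library scores are means of log2 CPM with a prior count of 2, with thalamus called high above 0.5. Libraries held 16922937 to 25308693 counts, 4.96 to 6.87% of them mitochondrial. DESeq2 1.42.0 and limma 3.58.1 on log2(RPKM + 0.1), other scaling, no filter, no sex term, only the libraries of the groups compared, leaving out each library and leaving out those of high thalamus markers were alternatives. The last was chosen after seeing the data. Promoters came from RefSeq. Figures used matplotlib 3.10.9.

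Genes with values in every library were, in each role group, those of largest rise in 5xFAD over WT (at most 3, or 2 in groups of 5 or fewer), all not called or not tested in a transgene comparison, the 3 of smallest p in each other comparison and the 3 highest in RPKM in 5xFAD. From the other lists, Trem2, Tyrobp, Apoe and Ctse, and for homeostatic microglia the 2 of smallest p, were named, and genes in counts of 5 or fewer were named after their values were seen. The 34 genes and all lists were chosen with earlier results of these data known.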

Additional observations from a re-analysis of the deposited data

Results flagged for a closer look

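In 13 of 132 sets of 4 libraries (1 gene in 1 group), 1 library stood apart from the other 3 by Dixon's test at the 95% level, where chance gives about 1 in 20, or 6.6. No explanation was tested. Library 5xFAD 15 was low for Itgax (12.6 CPM), Cd68 (45.1 CPM) and Gpnmb (22.1 CPM), each still above every non-carrier. Library 5xFAD 6 was high for Clec7a (43.7 CPM) and Lyz2 (118 CPM). Among 5xFAD-Dp16 libraries, 1 was high for Itgb5 (140.6 CPM) and Spp1 (63.8 CPM), and 11 for Tgm1 (3.57 CPM). Cd83 was high in Dp16 14 (33.1 CPM) and WT 4 (29.7 CPM), both libraries with high thalamus markers. Lgals3bp was high in Dp16 12 (48.3 CPM). Plin2 was high in Dp16 5 (6.15 CPM) and low in WT 2 (4.56 CPM).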

How the results depend on the processing

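The alternatives were other scaling, no low-count filter, no sex term, DESeq2, limma and fits of 8 libraries. Under them, 25 to 31 members were called in 5xFAD against WT (all genes, either direction: 3.15 to 12.4%). In 5xFAD-Dp16 against Dp16 they called 23 to 28 (all genes: 2.77 to 4.02%). Leaving out 1 library gave 28 to 30 (all genes: 3.22 to 20%) and 19 to 22 (all genes: 2.2 to 3.03%). With the 6 libraries of high thalamus markers left out, 5xFAD against WT called 19, losing Hif1a, Cd63, Fabp5, Dkk2, Plin2, Spp1, Lgals3bp, Cd300lf, Lgals3, Lyz2 and Clec7a and gaining Lpl, in a fit with fewer samples whose median log2 fold change was 2.35. The same fit held 1 5xFAD library. In it the Gpnmb estimate was negative in the interaction and in 5xFAD-Dp16 against 5xFAD. With no low-count filter, the interaction called 6 lower (of 290 genes in all, 0.901%). Dp16 against WT called 3 (of 360, 1.12%), Cst7 and Clec7a higher and Cd63 lower. Dp16 12 held most Dp16 counts of Cst7 and Clec7a. 5xFAD-Dp16 against 5xFAD called 11 lower (of 1656, 5.15%) and the sex difference 3 higher (of 283, 0.879%). The cause of these calls was not tested. In 5xFAD-Dp16 against 5xFAD, DESeq2 called 2 lower (of 720), and leaving out 1 library gave 0 to 3, the 3 (Cd9, Cd63 and Fabp5, of 2045) without 5xFAD 10. The median log2 fold change in 5xFAD over WT was 1.79 by limma on log2(RPKM + 0.1) and 2.06 from 8 libraries, against 2.44, and 2.31 to 2.53 with 1 library left out. In 5xFAD-Dp16 over Dp16 it was 1.62 by limma, against 1.88, and 1.66 to 2.00 with 1 library left out. The reason for the lower limma medians was not tested. Cd83 in 5xFAD-Dp16 over Dp16, at 0.080, turned to -0.051 without Dp16 3, -0.011 without Dp16 12, -0.020 without 5xFAD-Dp16 1 and -0.0072 without 5xFAD-Dp16 11, within a range of -0.051 to 0.37 over the fits that left out 1 library. The labels give no litter or batch, so neither could be set against the groups. Genes with under 20 counts in a non-carrier group, such as Cst7, Pdcd1, Tgm1, Hcar2 and Cd300lf, have fold changes limited by depth. No paired analysis was possible because the replicate numbers run over all 16 mice and no groups share a number.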
